A study of Homo sapiens with 18 samples.

Results

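The peaks left in RNase H-treated DRIP libraries after 60 min of camptothecin (CPT) were compared with those of untreated cells (NT). CPT traps topoisomerase I on DNA as a cleavage complex. The comparison takes 4 of the 18 samples of the series, 2 NT and 2 CPT60 libraries, whose lists hold 88843 of the 430858 deposited peaks. The cells were HCT116, a human colorectal carcinoma line, either left untreated or exposed to 10 μM CPT for 60 min, with 2 biological replicates of each. In all 4 libraries the genomic DNA was cut with HindIII, EcoRI, XbaI, SspI and BsrGI, digested with RNase H and then precipitated with the S9.6 antibody. The labels give no allele or transgene, and the data are of 1 cell line. Members were chosen by the labels alone, without use of any measured value.

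S9.6 binds hybrids of DNA and RNA, and R loops are the main source of such hybrids in chromatin: nascent RNA pairs again with the template strand behind RNA polymerase and leaves the other DNA strand single. RNase H cuts the RNA of a hybrid, so an RNase H-treated library serves as the control for what the antibody pulls down beside hybrids, or for hybrids that survived the digestion. Topoisomerase I removes the negative supercoils that favour R loops. The question here was where in genes the signal that remained after RNase H appeared once CPT had been given, and which of it was found in both replicates.

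The lists differed far more between replicate numbers than between treatments, and this bears on every count that follows. NT replicate 1 held 473 peaks and NT replicate 2 held 15790. CPT60 replicate 1 held 5392 peaks and CPT60 replicate 2 held 67188. The lists covered 0.157 and 8.12 Mb in NT and 2.10 and 56.7 Mb after CPT. Within each replicate number the CPT60 list was the longer one, but the groups overlapped. The mean difference of 28158 peaks was smaller than the spread among the CPT60 lists (43696 peaks, SD, n = 2). A two-sided exact permutation test over the 4 libraries gave p = 0.667 (0.769 after Benjamini-Hochberg adjustment over 15 measures), and 2 libraries against 2 cannot go below 0.333. Median peak width was 248 and 377 bp in NT and 340 and 477 bp after CPT, with the same p of the exact permutation test, 0.667.

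The peak lists hold no read counts, but the fragments stacked at each summit could be solved from the fold enrichment and the p-value, and a whole number fitted the deposited −log10 p within 0.001 for 100% of the peaks with a −log10 p under 100 in each list. The lowest background, the number of fragments expected at any position, was 0.545 in NT replicate 1, 0.929 in NT replicate 2, 0.110 in CPT60 replicate 1 and 1.75 in CPT60 replicate 2. CPT60 replicate 1 was thus the shallowest library by this measure, 15.9-fold below CPT60 replicate 2. Its median peak rested on 4 fragments at the summit, and 67.1% of its peaks on 3 or 4. The medians were 8 and 9 fragments in the NT lists and 13 in CPT60 replicate 2. Depth was not ordered like the lengths of the lists in replicate 1, where the CPT60 list was longer than the NT list from a background 4.97-fold lower. In replicate 2 the deeper library was the CPT60 one, by 1.88-fold. When the summits of CPT60 replicate 2 were scaled to the background of NT replicate 2, 39984 peaks (59.5%) still passed the lowest p-value of that list, against its 15790. In replicate 1, 69 of the 473 NT peaks (14.6%) passed the lowest p-value of the CPT60 list once scaled to its background, against the 5392 of that list. The mean difference in peak number was then 14758 in place of 28158. The part of depth in the other differences was not tested beyond this scaling.

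To describe peaks seen in both replicates apart from the rest, peaks of the 4 lists sharing 1 bp or more were joined into 80903 regions. Of these, 595 regions had a peak in both CPT60 lists and in neither NT list, here called gained, which is 0.735% of all regions. The reverse pattern, a peak in both NT lists and neither CPT60 list, was found in 18 regions (0.0222%), here called lost. Another 55 regions had a peak in all 4 lists. Regions of CPT60 replicate 2 alone numbered 60950, those of NT replicate 2 alone 9314, those of CPT60 replicate 1 alone 4288 and those of NT replicate 1 alone 248. Only 18.8% of the peaks of CPT60 replicate 1 met a peak of CPT60 replicate 2, and 1.39% of the peaks of replicate 2 met one of replicate 1. In NT the corresponding shares were 41.0% of replicate 1 and 0.956% of replicate 2. Most regions of each list were found in that list alone. Among regions of several lists, the most frequent pattern was NT replicate 2 with CPT60 replicate 2, in 4986 regions. Of the peaks of NT replicate 2, 40.4% met one of CPT60 replicate 2. Left to 1 CPT60 list, the gained count would be 61554 without CPT60 replicate 1 and 4997 without CPT60 replicate 2, against 870 without NT replicate 2 and 596 without NT replicate 1. Likewise the lost count would be 9332 without NT replicate 1, 278 without NT replicate 2 and 90 without CPT60 replicate 2. An absent peak means a height below the threshold at that depth. The lost pattern needs a peak of NT replicate 1, which held only 473. With the strongest peaks of each list, as many as the shortest list holds, 8 regions were gained and 49 lost. The excess of gained over lost regions therefore depended on the unequal lengths of the lists.

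**Figure D1:**
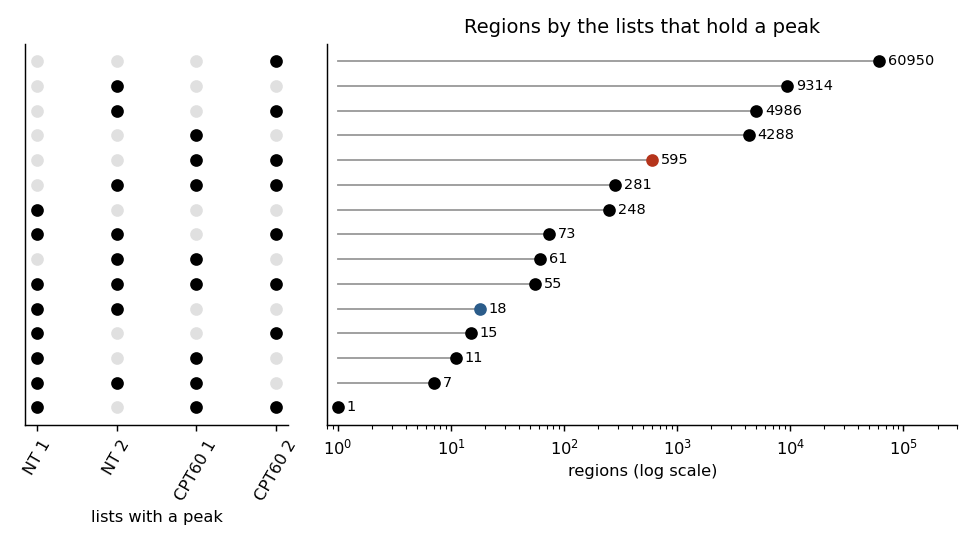
Number of regions (log scale, right) for each combination of lists that hold a peak (black dots, left). The gained pattern (red) holds 595 regions and the lost pattern (blue) 18, from lists of unequal length. Regions of CPT60 replicate 2 alone make up the largest class (60950).

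Sequences at the summits show what kind of DNA carried these signals. Each line below gives 150 bases of the plus strand of GRCh37 centred on a summit. Capitals mark runs of at least 3 G or C, except in the line for DICER1, where capitals mark exon bases. The first pair are gained regions in introns, shown as examples among the highest by rank whose sequence is not high in copy number. The last pair had a peak in all 4 lists, at a chromosome end and in an exon.
TJP1 intron, chr15:30108613-30108762: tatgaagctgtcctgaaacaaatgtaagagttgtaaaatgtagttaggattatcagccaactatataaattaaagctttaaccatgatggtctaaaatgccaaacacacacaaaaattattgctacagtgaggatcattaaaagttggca
SLC35F2 intron, chr11:107728667-107728816: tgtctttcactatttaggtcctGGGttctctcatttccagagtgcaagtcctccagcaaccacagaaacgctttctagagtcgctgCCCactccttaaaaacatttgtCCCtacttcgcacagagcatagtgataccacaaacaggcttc
End of chromosome 21, chr21:48119395-48119544: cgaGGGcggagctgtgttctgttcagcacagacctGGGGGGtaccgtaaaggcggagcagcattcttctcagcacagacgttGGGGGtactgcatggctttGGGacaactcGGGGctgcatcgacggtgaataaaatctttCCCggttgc
DICER1 exon, chr14:95590679-95590828: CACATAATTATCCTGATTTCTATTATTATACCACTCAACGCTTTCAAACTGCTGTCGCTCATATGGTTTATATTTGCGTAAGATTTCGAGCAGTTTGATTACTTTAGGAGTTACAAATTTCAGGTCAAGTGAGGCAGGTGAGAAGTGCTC

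The TJP1 window holds no run of 3 G or C, and the SLC35F2 window holds 3. To place summit sequences on a scale of repetition, the number of times each 14-base word of the 300 bp around a summit occurs in GRCh37 was counted on both strands. The median word occurred 44 times at TJP1 and 33 times at SLC35F2, but 8996 times at VAPB, 18306 times at HMGB1 and 7410 times at BTG2. Words present so often are typical of interspersed repeats, of which Alu and L1 elements are the commonest in the human genome. No repeat annotation was used here, so elements were not assigned. Windows whose median word occurred at least 1000 times are called high-copy below, a limit set after summit sequences had been read. They made up 9.53% of 94522 windows laid every 30 kb along the genome, whose median was 54.

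Along genes, the peaks after CPT lay nearer to the 5′ end than those of NT in both replicates, slightly in replicate 1 and clearly in replicate 2. Of the summits inside exactly 1 protein-coding gene of at least 2000 bp, 7.89% and 8.99% lay in the first 10% of the gene in the NT lists (228 and 8309 summits). After CPT the shares were 11.9% and 24.4% (2741 and 43405 summits). Both CPT60 values were above both NT values, by 4.04 percentage points in replicate 1 and 15.4 in replicate 2. An even spread would place 10% of summits in each of 10 equal parts, so NT peaks were near to even or below it at the 5′ end and CPT60 peaks above it. In the last 10% of the gene the order was the reverse, with 14.04% and 9.95% in NT and 8.28% and 5.65% after CPT. The exact permutation test over libraries of the first 10% of the gene gave p = 0.333, the smallest it can give, and 0.769 after adjustment. The difference was between 7.02 and 11.1 points under all alternatives that kept the 4 libraries, and from 3.49 points without CPT60 replicate 2 to 15.9 without CPT60 replicate 1.

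**Figure D2:**
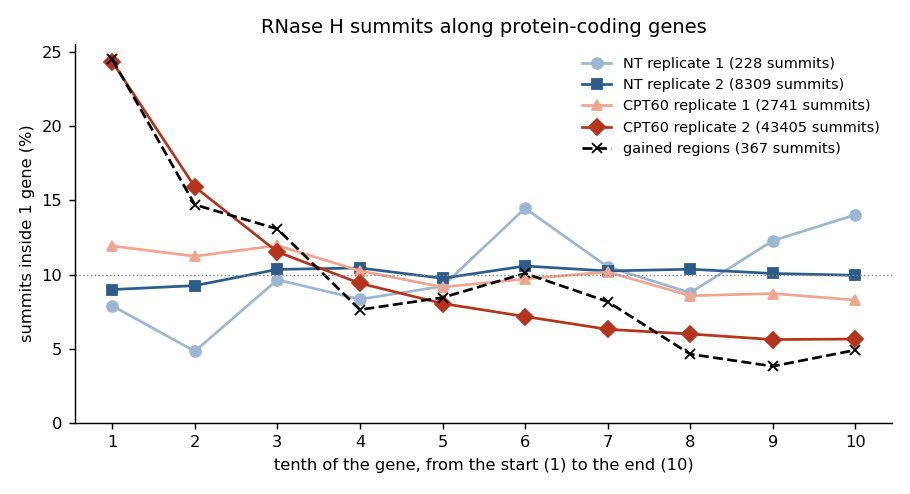
Share of summits (%) in each of 10 equal parts of the protein-coding gene that holds them, from start to end, for the 4 RNase H lists and the gained regions. CPT60 replicate 2 and the gained regions both begin near 24.4% and 24.5% in the first 10% of the gene, CPT60 replicate 1 begins at 11.9%, and the NT lists at 7.89% and 8.99%; the dotted line marks 10%.

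The 2 lists after CPT were not alike in this profile. In CPT60 replicate 2 the share was lower in each part than in the one before as far as the ninth, at 5.62%, while CPT60 replicate 1 stayed between 8.28% and 11.97% throughout. The peaks of CPT60 replicate 1 that met one of replicate 2 had 18.8% of their summits in the first 10% of the gene (621 summits), and those that did not had 9.91% (2120 summits). In the shallow library the higher 5′ share lay among the minority of peaks that the other replicate also held. These peaks were picked by overlap with a list that itself had 24.4% there. The split therefore cannot show whether the 5′ share of replicate 1 was its own. For replicate 2 the split made less difference, 19.7% with a partner and 24.4% without. In NT the peaks shared by both replicates leaned the other way, with 2.00% and 3.95% in the first 10% of the gene and 18.0% and 17.1% in the last, from 100 and 76 summits. The DRIP libraries without RNase H had 12.4% and 14.2% of summits in the first 10% of the gene in NT and 25.03% and 26.6% after 60 min of CPT. The RNase H libraries of 5 min of CPT stood at 13.5% and 15.9%. Both were above the NT lists and CPT60 replicate 1 (11.9%) and below CPT60 replicate 2 (24.4%).

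By the class of position, a promoter summit lay in the 5′UTR or up to 10 kb before the start of a protein-coding gene, and a terminator summit in the 3′UTR or up to 10 kb past the end. Promoter summits were 7.61% and 17.4% of the NT lists and 11.1% and 27.0% of the CPT60 lists, where such sequence makes up 6.73% of the genome. The CPT60 share was the higher one within each replicate number, by 3.44 and 9.59 points, but the groups overlapped (exact permutation p = 0.667). The mean difference of 6.51 points was −1.44 without CPT60 replicate 2, 1.63 without NT replicate 1, 11.4 without NT replicate 2 and 14.5 without CPT60 replicate 1. It was 1.36 points with windows of 1 kb in place of 10 kb, and 19.03 with equal numbers of the strongest peaks of each list. Intron summits were 40.2% and 38.5% in NT and 43.8% and 43.6% after CPT, with no overlap and an exact permutation p of 0.333. Introns were the largest class in all 4 lists and are 38.7% of the genome. Exon summits were 4.44% and 2.38% in NT and 0.983% and 2.22% after CPT, again with no overlap (exact permutation p = 0.333), although the difference within replicate 2 was only −0.164 points. Terminator shares ran from 8.66% to 13.9% with differences of −0.853 points in replicate 1 and 1.82 in replicate 2. Intergenic shares were 38.3% and 29.7% in NT and 35.5% and 13.3% after CPT, against 47.1% of the genome, and overlapped between groups. After adjustment p was 0.769 or 1 for each class. With summit heights scaled for depth, the exon difference was −9.71 points and the intron difference 12.2, but these rest on the 69 peaks then left in NT replicate 1, of which 20.3% were exonic and 23.2% intronic. The intron difference turned to −4.76 points when equal numbers of the strongest peaks of each list were taken, and the exon difference to 1.34 points when any overlap was counted.

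**Figure D3:**
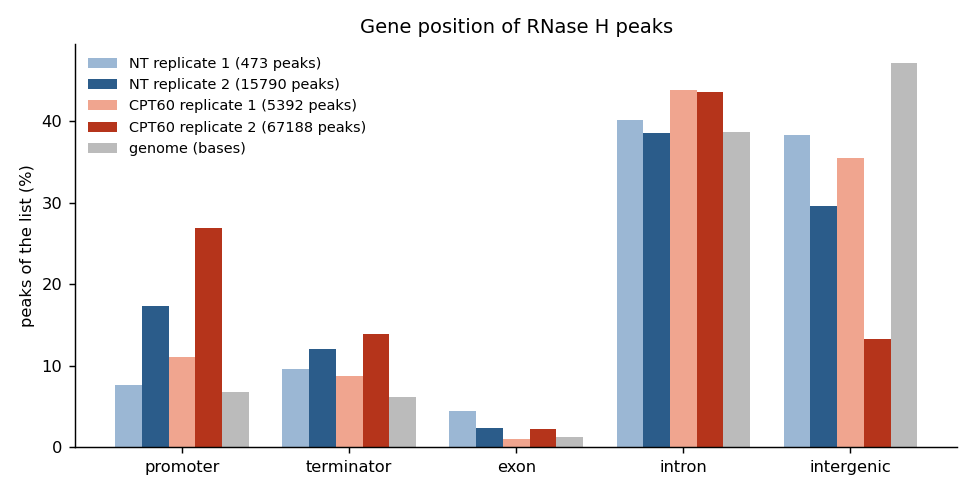
Share of the peaks of each RNase H list (%) by the position of the summit, with the share of genome bases in grey. CPT60 replicate 2 has the highest promoter share (27.0%) and the lowest intergenic share (13.3%), and both CPT60 lists exceed both NT lists in introns.

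Peaks close to a start site were a minority. Summits within 1 kb of the nearest protein-coding start were 2.33% and 3.69% of the NT lists and 1.56% and 6.72% of the CPT60 lists. The excess of CPT60 replicate 2 lay further into the gene. Summits from 1 to 5 kb downstream of a start made up 2.54% and 6.72% in NT, 4.47% in CPT60 replicate 1 and 15.2% in CPT60 replicate 2. From 5 to 10 kb downstream the shares were 3.59%, 6.25%, 5.64% and 14.6% in the same order. The gained regions had 1.51% of summits within 1 kb downstream, 14.5% from 1 to 5 kb and 17.8% from 5 to 10 kb.

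The 595 gained regions had promoter, terminator and intergenic shares nearer to CPT60 replicate 2 than to CPT60 replicate 1, in part by construction. Their summits lay at promoters in 27.2% (95% Wilson interval 23.8 to 30.9%, 162 regions), at terminators in 15.97% (13.2 to 19.1%), in exons in 0.672%, in introns in 42.9% (38.9 to 46.9%) and between genes in 13.3% (10.8 to 16.2%). Regions of CPT60 replicate 1 alone were at promoters in 7.37% and between genes in 40.2%, close to the genome shares. Regions of CPT60 replicate 2 alone were at promoters in 27.4% and between genes in 12.4%. Gained regions had 24.5% of summits in the first 10% of the gene (20.4 to 29.2%, 90 of 367), where regions of CPT60 replicate 1 alone had 9.99% and those of CPT60 replicate 2 alone 25.5%. Their median width was 871 bp, each being the union of peaks of 2 lists. Since each interval covers counting error over regions only, these are descriptions of the 4 lists. By definition each gained region also holds a peak of CPT60 replicate 2. Its summit is that of the peak with the higher percentile of fold enrichment within its list. The median percentile at gained regions was 51.5 in CPT60 replicate 1 and 71.8 in CPT60 replicate 2. The likeness to CPT60 replicate 2 is therefore a description only.

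At gained regions the median height was 4 fragments in CPT60 replicate 1 and 16 in CPT60 replicate 2, and 373 of the 595 regions (62.7%) rested on 3 or 4 fragments in replicate 1. Only 92 regions had 6 fragments or more there. When the heights of replicate 2 were scaled down to the background of NT replicate 2, 451 of the 595 regions (75.8%) would still have passed the lowest p-value of that list. These 451 lay at promoters in 29.7% and between genes in 9.53%. The other 144 would not. In replicate 1 no such correction applies to the gained regions, because the NT library had the higher background.

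DRIP lists of the same cells without RNase H, which did not enter the classes, met most of the gained regions. A peak was present at 57.0% of them in the CPT60 replicate 1 DRIP list (95% Wilson interval 52.96 to 60.9%) and at 76.3% in the CPT60 replicate 2 DRIP list (72.7 to 79.5%). In the NT DRIP lists the shares were 31.6% (28.0 to 35.4%) and 41.2% (37.3 to 45.2%). Both CPT60 DRIP lists met 307 gained regions (51.6%), both NT DRIP lists met 151 (25.4%), and no DRIP list met 89 (15.0%). At 105 regions (17.6%) a DRIP peak was in both CPT60 lists and neither NT list, the same pattern as in the RNase H lists. Over all 80903 regions the CPT60 DRIP lists met 29.0% and 55.3%, the NT DRIP lists 18.8% and 30.4%, no DRIP list met 34.0%, and 10.2% had a DRIP peak in both CPT60 lists and neither NT list. Of the regions of CPT60 replicate 2 alone, 32.6% and 65.1% met a peak of the CPT60 DRIP lists, and 12.9% had that pattern. Of the regions of CPT60 replicate 1 alone, 2.50% to 3.71% met a peak of any 1 of the 4 DRIP lists, and 90.5% met none. The 5 min RNase H lists had a peak at 6.22% and 47.6% of the gained regions, against 1.501% and 28.6% of all regions, 1.38% and 3.85% of the regions of CPT60 replicate 1 alone and 0.712% and 27.7% of those of CPT60 replicate 2 alone. The 5 min share of replicate 2 was the higher one in each class of region, and these lists differed in length like the others. Gained regions were 871 bp wide at the median, against 445 bp for all regions. Regions of CPT60 replicate 1 alone were 332 bp wide and those of CPT60 replicate 2 alone 462 bp. A wider region can meet a peak of any list more easily, and the shares were not corrected for width.

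**Figure D4:**
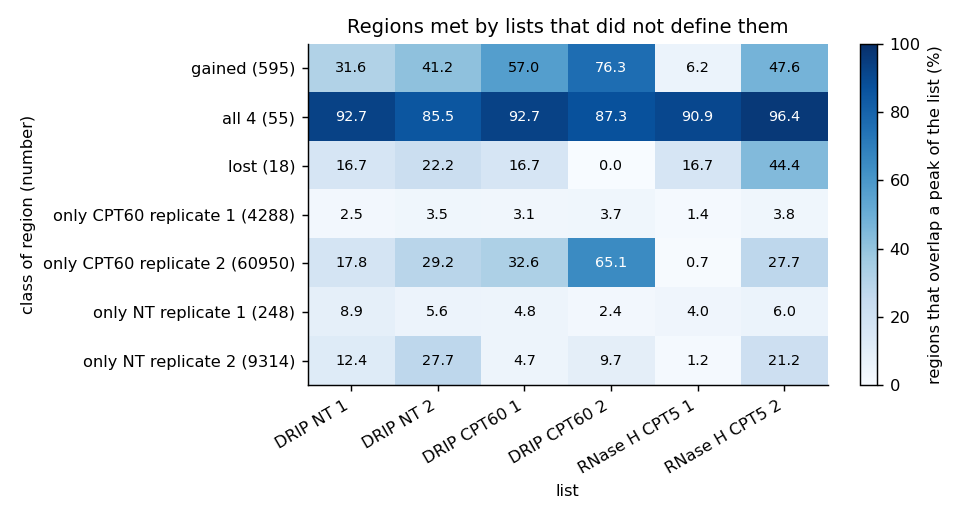
Percentage of regions of each class (rows, with the number of regions) that overlap a peak of the 4 DRIP lists and the 2 RNase H lists of 5 min of CPT (columns). Gained regions were met by 57.0% and 76.3% in the CPT60 DRIP lists, regions of all 4 lists by 85.5% or more in every column, and regions of CPT60 replicate 1 alone by under 4%.

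Taken by whole lists, 35.7% of the peaks of NT replicate 1 and 45.3% of NT replicate 2 met a DRIP peak of their own replicate and treatment. After CPT the shares were 14.7% in replicate 1 and 65.1% in replicate 2. The differences had opposite signs, −21.0 points in replicate 1 and 19.8 in replicate 2, and the exact permutation test gave p = 1. Whether a peak met DRIP also sorted the peaks by position. In CPT60 replicate 2, peaks with a DRIP partner were at promoters in 32.5% and between genes in 6.38%, and peaks without one in 16.7% and 26.2%. In CPT60 replicate 1 the promoter shares were 25.4% with a partner (792 peaks) and 8.59% without (4600 peaks). In NT replicate 2 they were 24.3% and 11.7%. So in each list but the short NT replicate 1 list, where they were 8.88% and 6.91%, the peaks that the undigested library also held lay at promoters clearly more often than the others. The DRIP lists themselves had 20.7% and 22.1% of summits at promoters in NT and 26.3% and 27.1% after 60 min of CPT. Overlap with them therefore favours promoters, and the split is a description only.

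High-copy sequence set the treatments apart in the same direction in both replicates. High-copy windows were 21.2% and 25.1% of the NT summits and 44.9% and 33.4% of the CPT60 summits, against 9.53% of the genome windows. Both CPT60 lists were above both NT lists, by 23.6 and 8.28 points, with an exact permutation p of 0.333, the smallest possible, and 0.769 after adjustment. Of the gained regions 49.9% (45.9 to 53.9%) were high-copy, of the regions in all 4 lists 7.27%, and of the regions of CPT60 replicate 1 alone 46.4%. Peaks without a DRIP partner were high-copy more often than those with one in each of the 4 lists, 46.9% against 33.2% in CPT60 replicate 1 and 40.7% against 29.4% in CPT60 replicate 2. With all high-copy peaks left out, there were 228 gained regions. The difference in the first 10% of the gene was then 11.1 points, where it was 9.70 with them.

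Runs of at least 10 A or T were found in 32.4% of the windows of CPT60 replicate 1 and 17.5% of CPT60 replicate 2, in 19.5% and 14.1% of the NT lists, and in 9.72% of the genome windows. The CPT60 share was the higher one within each replicate number, by 12.9 and 3.43 points, but the groups overlapped (exact permutation p = 0.667). Gained regions held them in 31.6% (28.0 to 35.4%). The G-quadruplex motif, 4 runs of at least 3 G or C on 1 strand with loops of 1 to 7 bases, is a sequence known from R loop-prone DNA. It was searched on both strands and was in 8.49% and 8.70% of the NT windows and 4.32% and 5.51% of the CPT60 windows, lower after CPT in both replicates with no overlap (exact permutation p = 0.333), and in 3.13% of the genome windows. Median GC was 48.3% and 50.7% in NT and 47.7% and 48.3% after CPT, above the 40% of the genome windows in all lists. Peak edges lay within 1 bp of a site of the 5 restriction enzymes for 9.41% and 25.7% of the edges in NT and 16.5% and 30.0% after CPT, where 1.75% of genome positions are that close to a site. So in each list part of the peaks ended where the DNA had been cut.

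The strongest gained regions lay at genes of varied function. Rank here is the lower of the 2 percentiles of fold enrichment within the CPT60 lists, and the fold is that of the summit over the background of its own library. The first by this rank, chr19:2160228-2164489, covered the neighbouring starts of AP3D1, a subunit of the AP-3 adaptor complex of lysosomal sorting, and of DOT1L, the methyltransferase of lysine 79 of histone H3. Its summit lay at −2769 bp from the start of DOT1L, with 13 fragments and a fold of 12.3 in CPT60 replicate 1 and 32 fragments and a fold of 10.3 in CPT60 replicate 2. All 4 DRIP lists had a peak there, so in the undigested libraries the region was not particular to CPT. At chr17:79838747-79845416, near ALYREF, an mRNA export adaptor, the folds were 9.84 and 8.91 with 11 and 77 fragments. At chr3:10361717-10365820 the region reached SEC13, a coat and nuclear pore protein, with 8 and 28 fragments. At CDC34, a ubiquitin-conjugating enzyme, the heights were 8 and 72 fragments, and at MTIF2, a mitochondrial translation initiation factor, 7 and 19. These 5 regions count as promoter by the 5′UTR or 10 kb window of any protein-coding gene, not always the one named. Near ALYREF the summit lay at −8195 bp from the start of ANAPC11. The MTIF2 summit was in an intron of that gene, at −8820 bp from the start of CLHC1. The CDC34 summit was in an exon, 5332 bp past the start of CDC34. Among the 5, the region at MTIF2 had DRIP peaks in both CPT60 lists and in neither NT list.

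In introns the highest regions were in UBP1, a transcription factor gene, with 8 and 34 fragments in CPT60 replicates 1 and 2, and in TJP1, which encodes the tight junction protein ZO-1, with 7 and 31. VAPB, an endoplasmic reticulum membrane protein, followed with 9 and 20 fragments, then PHF19, a Polycomb accessory protein, with 6 and 21. SLC35F2, a solute carrier, had 6 fragments in replicate 1 and 54 in replicate 2, with folds of 6.20 and 20.0. UBP1 and VAPB were 11767 and 6125 bp from their start sites, TJP1 and SLC35F2 152430 and 70277 bp. The regions of TJP1, VAPB and SLC35F2 had DRIP peaks in both CPT60 lists and in neither NT list, and those of all but PHF19 had an RNase H peak in the 5 min list of replicate 2.

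The exon class, which leaves out exon summits counted as promoter or terminator, held 4 gained summits, all of which are named. They lay in RPL7, a protein of the large ribosomal subunit that overlaps RDH10 there (5 and 54 fragments), HDHD5 (4 and 30), HPS1 (4 and 43) and RFC4, a subunit of the replication clamp loader (4 and 12). RFC4 was the 1 region among the 22 named here that would have missed the threshold of NT replicate 2 at its depth. At terminators the highest was COPS3, a COP9 signalosome subunit, whose region chr17:17177035-17182705 had 7 and 35 fragments. Its summit was in an annotated 3′UTR but only 5205 bp past the start of this gene of 34658 bp. The others lay downstream of HMGB1, a chromatin protein (6 and 36 fragments), PNRC1, a nuclear receptor coactivator (7 and 18), BCL3, a cofactor of NF-κB (12 and 37), and BTG2, an antiproliferative p53 target. The BTG2 region, chr1:203272465-203287452, was the widest of the gained regions at 14988 bp and covered the whole gene. Its fold was 5.41 in CPT60 replicate 1 with 5 fragments and 30.9 in CPT60 replicate 2, where the height could not be solved. Between genes, the highest 3 were on chromosomes 8, 7 and 12, with 5 to 7 fragments in replicate 1 and 15 to 33 in replicate 2. Of the 22 named regions, 20 had DRIP peaks in both CPT60 lists and 8 of these in neither NT list, 17 had a peak in the 5 min RNase H list of replicate 2 and 3 in that of replicate 1, and 7 had high-copy summits. The part of repeated sequence in these calls was not tested.

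There were 55 regions with a peak in all 4 lists, and so not particular to CPT. Of these, 4 lay within 15 kb of a chromosome end, 6 in DICER1 and 2 over annotated 5S rRNA pseudogenes of chromosome 1. Another 4 lay near the lncRNA LINC00665 on chromosome 19, and 3 between positions 32294372 and 32820129 of chromosome 16. The rest lay elsewhere, some close to each other, as at MUC6. On chromosome 19 lay 17 (30.9%), where 7.83% of all regions were. Positions of the 55 regions were promoter in 12.7%, terminator in 27.3%, exon in 5.45%, intron in 20.0% and intergenic in 34.5%. The terminator share includes DICER1 regions with summits 49981 to 67405 bp past its start, which lie in annotated 3′UTRs. The 55 regions were 2243 bp wide at the median, with median heights of 11 and 25.5 fragments in NT and 6 and 34.5 after CPT. The highest by rank, chr21:48119142-48119895 at the end of chromosome 21, had folds of 24.6 and 50.3 in NT and 13.4 and 33.5 after CPT. At the end of chromosome 19, chr19:59117436-59118986, the folds were 16.4 and 46.9 in NT and 14.4 and 51.6 after CPT. At chr1:228782590-228784362, over one of the 5S pseudogenes, they were 18.1 and 44.1 in NT and 7.42 and 48.3 after CPT. The 5 min RNase H lists had a peak at 90.9% and 96.4% of these 55 regions.

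DICER1, the ribonuclease that makes mature microRNAs, carried the strongest peaks of replicate 1, and these followed its exons. In NT replicate 1 the gene (chr14:95552565-95624347) had 10 peaks with folds of 186 to 849, all over an exon, and 79.8% of their bases were exonic, while exons make up 30.9% of the gene. NT replicate 2 had 10 peaks with folds of 15.3 to 37.9, and 69.9% of their bases were exonic. CPT60 replicate 1 had 11 peaks with folds of 4.28 to 198 and CPT60 replicate 2 had 11 with folds of 3.27 to 9.45, with 69.7% and 49.0% of bases in exons. Peaks over DICER1 exons were also present without RNase H, with folds of 116 to 362 in the NT replicate 1 DRIP list. The 150 bases printed above lie wholly inside 1 exon. Likewise in NT replicate 1, CBS, cystathionine beta-synthase, had 3 peaks with folds of 75.3 to 108 and CTH, cystathionine gamma-lyase, had 2 with folds of 60.0 and 104, all over exons. The CPT60 lists had no peak in CBS, and in CTH only 2 peaks of replicate 2, outside exons. These 3 genes were singled out after the values had been seen. Without them the exon difference was −0.926 points in place of −1.81, there were 49 regions in all 4 lists in place of 55, and the gained counts were the same, 595 regions and 1082 genes. Why the peaks follow exons was not tested.

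The median height of the 18 lost regions was 8.5 fragments in NT replicate 1 and 11.5 in NT replicate 2, and 10 of them were intergenic and 7 intronic. The highest by rank was chr17:61994088-61994634 near GH1, growth hormone, with 14 and 13 fragments, followed by an intron of SHC2, a signalling adaptor, with 11 and 11, and a region 66795 bp from THUMPD2 with 16 and 9. No DRIP list had a peak at any of these 3.

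Among 20162 protein-coding genes, 206 and 4650 had a peak in the gene body in the NT lists and 2483 and 12686 in the CPT60 lists. Genes with a peak in both CPT60 lists and neither NT list numbered 1082, or 5.37% of all genes, and 3 genes showed the reverse. The first count was 8649 without CPT60 replicate 1 and 2033 without NT replicate 2. These 1082 genes were long, with a median of 82387 bp against 27220 bp for all genes. The share of genes called was higher the longer the genes, from 0.397% in the shortest 20% of genes to 12.5% in the longest, and of the genes over 200 kb 15.0% were called. In 787 of the 1082 genes (72.7%) the peaks of the CPT60 lists did not overlap each other, so in most of these genes the lists had called different sites. Gained regions overlapped 484 genes. No gene held more than 2, and 17 held 2, among which MAT2A, TFIP11, GP6, ADSL and UQCC5 are the shortest. MAT2A, which makes S-adenosylmethionine, had its CPT60 replicate 1 peaks outside the gene body, and ADSL, an enzyme of purine synthesis, also had 1 peak in NT replicate 2.

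Gene lists that fit the treatment, chosen with earlier results of these data known, were read against all genes, of which 5.37% were called, 62.9% had a peak in CPT60 replicate 2, 23.1% in NT replicate 2, 12.3% in CPT60 replicate 1 and 1.02% in NT replicate 1. Of 25 immediate early genes, the first responders to growth signals and stress, 24 had a peak in CPT60 replicate 2 against 3 in NT replicate 2, with a median of 71.7% of the gene covered in CPT60 replicate 2 against 1.41% over all genes. None had one in replicate 1 of either treatment, so none was called. SR and hnRNP genes, which encode splicing and RNA-packaging proteins, showed the same, with 24 of 25 in CPT60 replicate 2, 2 in NT replicate 2 and none in the replicate 1 lists. Of 25 p53 targets, 25 had a peak in CPT60 replicate 2 and 6 in NT replicate 2, and the repair genes DDB2 and XPC were called. Of 26 translation factor genes, 26 and 5 had one in these lists, and EIF3D, EIF3E, EIF4A1 and EIF4E were called (15.4%). Among 25 heat shock and chaperone genes the called ones were CCT2, DNAJB6 and HSPD1 (12%). Of 86 cytosolic ribosomal protein genes, 76 had a peak in CPT60 replicate 2 and 13 in NT replicate 2, the median share of the gene covered in the former was 52.5%, and RPL7, RPL26, RPL28, RPL30 and RPS29 were called (5.81%). A peak of a given width covers more of a short gene than of a long one. Median length was 4201 bp for the immediate early genes and 5596 bp for the ribosomal protein genes, against 27220 bp for all genes. The shares covered were not corrected for length.

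In the list of topoisomerase, TDP and R-loop factor genes, FANCM was called among 22 (4.55%). In that of DNA damage response genes RAD50 was called among 25 (4%), and in that of colorectal driver and epithelial genes FBXW7 among 20 (5%). Of all genes 5.37% were called. Of these lists 95.5%, 96% and 70% of the genes had a peak in CPT60 replicate 2, and 13.6%, 28% and 25% in NT replicate 2. Of 249 zinc finger genes of chromosome 19, 10 were called (4.02%), and 122 had a peak in CPT60 replicate 2, or 49.0%. Of 67 replication-dependent histone genes and 39 HOX genes none was called. Their shares with a peak in CPT60 replicate 2 were 46.3% and 53.8%. These genes are short, with medians of 508 bp (histone) and 4216 bp (HOX). Of the shortest 20% of all genes, up to 7274 bp, 0.397% were called and 36.4% had a peak in CPT60 replicate 2. In NT replicate 2 the histone genes had 5.97% and the HOX genes 23.1%, against 23.1% of all genes and 7.81% of the shortest 20%. The counts called were not corrected for length. In each of these lists, CPT60 replicate 1 did not exceed NT replicate 2 except among translation factor genes, where 6 genes had a peak in the former and 5 in the latter.

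**Figure D5:**
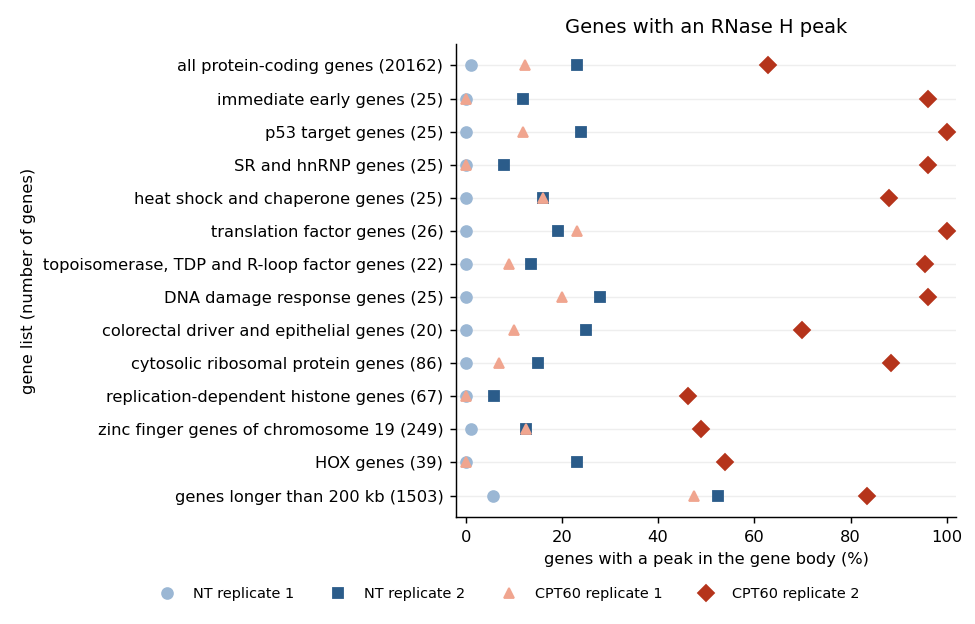
Percentage of the genes of each list (number of genes in parentheses) with a peak in the gene body, for the 4 RNase H lists. CPT60 replicate 2 is the highest in every row, from 46.3% of histone genes to 100% of p53 target and translation factor genes, while CPT60 replicate 1 lies at or below NT replicate 2 in all rows but that of translation factor genes.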

How the data were processed

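DRIP-seq peak lists of HCT116 cells were used. Per the labels and methods, the authors used Cutadapt for trimming and BWA for alignment to hg19 and to the sacCer3 yeast spike-in, discarded duplicates and reads in blacklisted regions, and ran MACS2 on every library with input DNA as control, without pooling replicates. The labels give 1 input per treatment and replicate, not separate ones for the DRIP and RNase H libraries. Tool versions, the peak threshold and a filter on mapping quality are not given in the sources used here. Reads that map to repeated sequence can be placed by chance, and the lists carry no spike-in scaling. The deposited lists hold for each peak a fold enrichment (a ratio), −log10 p and −log10 q (the lowest were 1.30 to 1.31), and a score that was not used. They hold no counts, so read depth could not be taken from them. The paper's supplement reports read numbers of the DRIP-seq libraries, which were not used here.

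Peaks were placed by summit on GENCODE release 44 protein-coding genes (GRCh37 coordinates), with promoter, terminator, exon, intron and intergenic in this order of priority. UTRs were those of all annotated transcripts of these genes, so a 3′UTR could lie inside a gene. Regions merged peaks of the 4 lists, and each took the summit of its peak with the highest percentile of fold enrichment within its list. Group differences were tested with a two-sided exact permutation test over libraries and Benjamini-Hochberg adjustment over 15 measures. With 2 libraries a group, p is the share of relabellings of the 4 libraries whose difference of means is at least as large in size. Regions and genes carry no test. Intervals on shares are 95% Wilson intervals, which cover counting error only. Summit heights were solved from fold enrichment and −log10 p under the MACS2 Poisson model with a pseudocount of 1. The steps were tested on simulated data, where 599 of 599 regions were classed as simulated.

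Named regions were the 5 gained ones with the highest score at promoters, introns, exons and terminators, the 3 intergenic ones, the 5 highest in all 4 lists, the 3 highest lost ones, and the 5 genes with the most gained regions, ties going to the shortest. The score was the lowest percentile of fold enrichment within the lists that carry a region. The gene lists, classes and measures were chosen with earlier results of these data known. The high-copy measure, the scaling of summit heights and the removal of peaks in DICER1, CBS and CTH were added after the data were seen. Analyses used Python 3.11.15, NumPy 2.4.6, pandas 2.3.3, SciPy 1.17.1, pysam 0.24.0 and Matplotlib 3.10.9.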

Additional observations from a re-analysis of the deposited data

How the results depend on the processing

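Of 135 values of 14 results under alternatives other than leaving out a library, 111 kept their direction and, for counts, stayed within 1.5 times. Both numbers include the pairing of libraries by replicate number, which leaves each mean difference unchanged by construction. The size of a difference could still move, as for bases covered (25.3 Mb, and 1.17 Mb with the strongest peaks). The terminator difference (0.49 points) was −0.47 with 1 kb windows, −0.73 with lncRNA genes added and −3.51 with heights scaled. The exon difference (−1.81) was 1.34 when any overlap counted. With the strongest peaks of each list, as many as the shortest list holds, the intron difference (4.38) was −4.76 and the difference in peaks met by DRIP (−0.61) was 2.33, and there were 8 gained, 49 lost and 12 regions in all 4 lists, and 10 gained and 39 lost genes. Peak number is equal by construction there and was not compared. At a −log10 q of at least 3 there were 283 gained regions, 34 in all 4 lists and 697 gained genes. Where a peak had to cover 50% of the region, there were 235 gained, 11 lost and 13 in all 4 lists. With absence needed in 1 list only, 98 regions were lost. With heights scaled, 3 regions and 1 gene were lost and 21 regions were in all 4 lists. Without high-copy peaks there were 228 gained regions and 644 gained genes. With 10 kb added to genes, 6 were lost. The cause of these differences was not tested.

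With 1 library left out, the CPT60 minus NT difference ran from −2740 to 59056 peaks, from −2.04 to 52.6 Mb, and in points from −1.44 to 14.5 (promoter), −2.14 to 3.11 (terminator), −2.84 to −0.78 (exon), 3.55 to 5.21 (intron), −20.7 to 1.52 (intergenic), 3.49 to 15.9 (the first 10% of the gene) and −25.8 to 24.6 (met by DRIP). Counts ran from 596 to 61554 gained regions, 26 to 9332 lost, 55 to 335 in all 4 lists, and from 1098 to 8649 gained and 6 to 576 lost genes. Replicate numbers are shared by both groups, but nothing in the labels ties them to a batch. Deviations of same-numbered libraries correlated at r = 0.32 across 20162 genes, which are not independent. The replicate block leaves each difference as it is by construction (28158 peaks, 25.3 Mb, 9.70 points in the first 10% of the gene), with an exact sign-flip p of 0.5 at the smallest. Ranked by −log10 p, 19 of the 22 gained regions named would also be named.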
